A study of Homo sapiens with 4 samples.

Results

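The SCAN domain zinc finger family was examined across 4 RNA-seq libraries of HEK-293, an established cell line from human embryonic kidney. Family members were taken by symbol, under a rule that uses no measured value. Every gene row with a ZSCAN, ZKSCAN or SCAND symbol was used, together with 14 genes that carry other names, such as ZNF24, ZNF274, MZF1 and PEG3. This gave 38 genes of the 24934 rows in the table. One further row, a copy of SCAND3 on an alternative contig, was left out. One library each came from cells transfected for 48 h with 10 nM of siRNA against ZSCAN5A (si4 or si5), siRNA against ZSCAN5B (si1), or scrambled control siRNA. The values are FPKM, the fragments assigned to a gene, scaled to the length of its transcript and to the size of the library. Because FPKM is scaled to length, levels can be set side by side between genes. Such comparisons depend on the transcript length that was used for each gene. With 1 library per siRNA and a single control there was no replicate spread to test against, so no p-value was computed. Ratios compare libraries, and a difference between siRNA and control cannot be told apart from a difference between 2 dishes of cells.

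SCAN is a leucine-rich domain near the amino end of these proteins, through which they pair with themselves and with each other. Most members carry C2H2 zinc fingers that bind DNA, and some, including most ZKSCAN genes, also carry a KRAB domain. In many proteins, though not in all, this domain recruits the corepressor TRIM28. SCAND1 has the SCAN domain without zinc fingers. The family is known from vertebrates, and many of its genes stand in clusters made by tandem duplication. ZSCAN5A and ZSCAN5B are such neighbours, and the study set out to lower each of them to ask what the paralogs do in the same cells.

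The siRNA target sites are printed because the 2 targeted genes are close copies. Each site is written 5′ to 3′ as it lies in the mRNA, and capitals mark the 7 bases that pair with bases 2 to 8 of the siRNA guide strand, its seed.
si4 target in ZSCAN5A: cgagaagaggtttACGTGTAa
si5 target in ZSCAN5A: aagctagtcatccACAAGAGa
si1 target in ZSCAN5B: acgtgtgcaataaATCATTTa
All were found on the minus strand of chromosome 19 in GRCh37 (hg19), the build of the deposited table. The si4 site lies at chr19:56733332-56733352 and the si5 site at chr19:56733307-56733327, both in coding sequence of the last exon (exon 6) of ZSCAN5A. The si1 site lies at chr19:56701591-56701611, in coding sequence of the last exon (exon 5) of ZSCAN5B.

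The best ungapped matches of the siRNAs in other ZSCAN5 transcripts show how near the paralogs are, and the closest are printed. Here capitals mark the bases that differ from the siRNA target.
si4 in ZSCAN5B: GgagaGgCCgtttaAAtgtaa
si4 in ZSCAN5DP: cAaTaagaggtttacgtgtaa
si5 in ZSCAN5B: CagctaAGcatccacaGgagG
si5 in ZSCAN5C: aagTtagCcGtccacaCgaga
si5 in ZSCAN5DP: aagctagCcatccacaTgaga
si1 in ZSCAN5A: acgtgtgcGaGaaGAGGttta
si1 in ZSCAN5DP: GcgtgtgcaataaGAGGttta
The matches in ZSCAN5B have 6 mismatches to si4 and 5 to si5, and the match of si1 in ZSCAN5A has 6. This last site starts at base 1464 of the ZSCAN5A transcript, and the si4 site starts at base 1471, so the sites overlap. In ZSCAN5DP, annotated as a further copy that was not analysed here, si4 and si5 each have 2 mismatches and si1 has 5. For the paralog it names ZSCAN5D, the paper's qRT-PCR gave transcript levels below the control with si4, si5 and si1, lowest with si5. In ZSCAN5C, also not analysed here, si4 has 6, si5 has 4 and si1 has 8. The other 36 members had at least 6 mismatches to si4, 5 to si5 and 6 to si1. Of these, 4 came to 6 mismatches with si4 (ZKSCAN4, ZNF174, ZSCAN12 and ZSCAN21). In the si4 library they stood at 91.9%, 102%, 89.1% and 72.6% of the control, in that order. A link between match and level was not tested, and ZSCAN21 is shown because it recurs below.
si4 in ZSCAN21: AgagaagCCAtAtaAgtgtaa

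ZSCAN5A, the gene targeted by si4 and si5, was, among members that reached 1 FPKM in those libraries or the control, the one that differed from the control by more than 1.5-fold. Its FPKM was 0.730 under si4, 0.713 under si5, 2.53 under si1 and 2.42 in control cells. Both ZSCAN5A siRNA libraries stood far below the other two. Low FPKM values of this table move in steps of single fragments, and for 15 members the 4 values gave the smallest whole numbers of fragments in the same proportion. For ZSCAN5A these were 485 in the control, 160 and 221 under its own siRNAs si4 and si5, and 516 under si1. Allowing for depth, ZSCAN5A stood at 30.2% of the control with si4 (exact Clopper-Pearson 95% interval 25.1% to 36.2%) and at 29.5% with si5 (25% to 34.7%). With si1 it stood at 105% (92.3% to 119%). These intervals cover counting error alone. In a bulk library, fewer cells with the transcript and less transcript per cell cannot be told apart. Of 12993 genes compared, 11 were further below the control than ZSCAN5A in the mean of si4 and si5.

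ZSCAN5B, the target of si1, was hardly detected. Its FPKM was 0.0331 under si4, 0.0663 under si5, 0.0948 under si1 and 0.0903 in control cells. These values rest on 6, 17, 16 and 15 fragments. In these values ZSCAN5B was not lower in the library meant to lack it, at 105% of the control with an interval of 48.6% to 228%. That library is therefore named below as the library labelled ZSCAN5B knockdown. The lowest value came with si4, at 36.6% of the control (11.6% to 99.9%), and si5 gave 73.4% (34.5% to 158%). The si4 value was 49.9% of the si5 value, and the interval of 16.1% to 133% includes equality. By qRT-PCR, the paper reported lower ZSCAN5B transcript levels with si1 and some overexpression of ZSCAN5B with si4. Its blot showed less ZSCAN5B protein after knockdown of that gene. The si1 interval lies wholly above the level that the paper gave by qRT-PCR for ZSCAN5B with si1. With si4 the interval ends just below the control, whereas the paper's value lay above it. These intervals cover counting error alone, on few fragments in 1 library each. Whether ZSCAN5B transcript levels fell or rose in the cells was not tested. Of the 101-base windows of the ZSCAN5A transcript, the read length of the labels, 8.44% (173 of 2051) occur without mismatch in another ZSCAN5 transcript, and 8.97% (153 of 1706) of those of ZSCAN5B do. Reads from such windows cannot be assigned to 1 paralog, which is why the values of both genes carry this uncertainty.

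**Figure D1:**
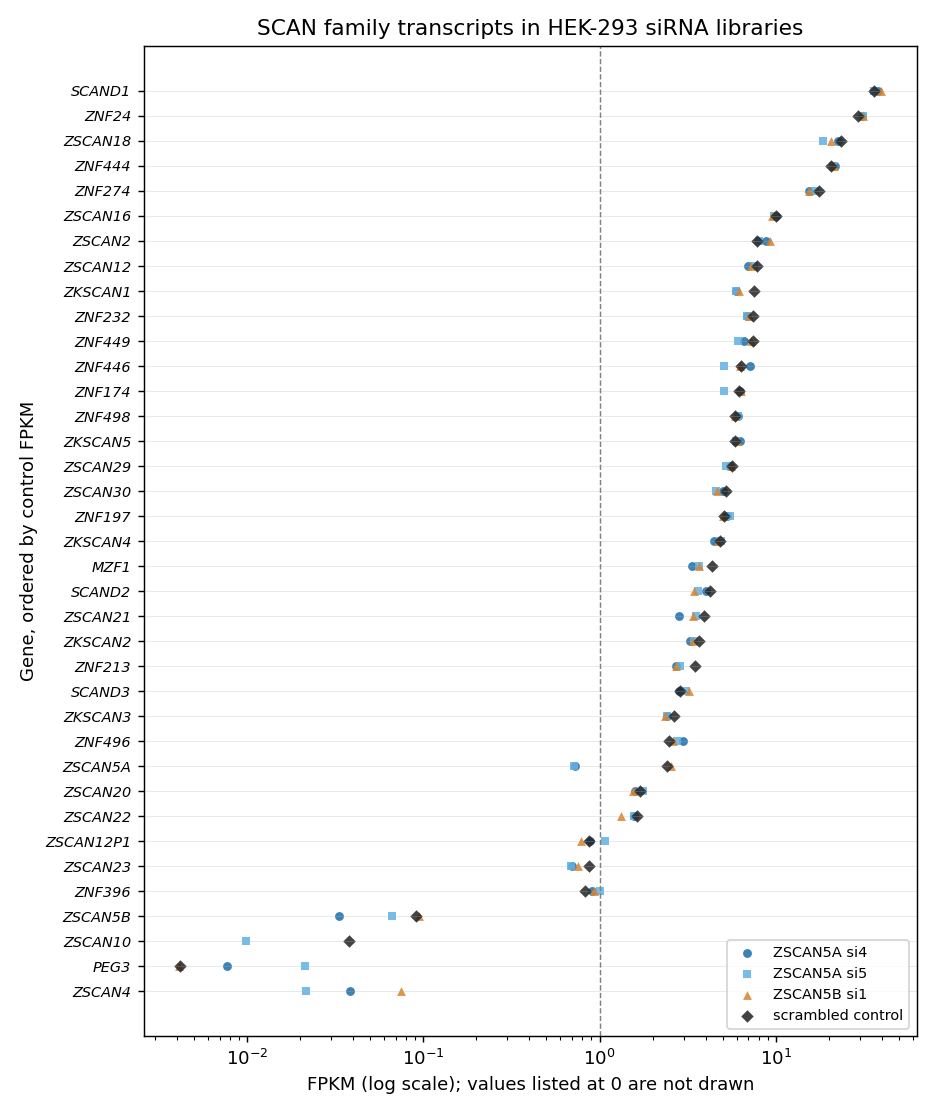
FPKM of 37 members in the 4 libraries, on a log axis, with genes ordered by their level in the scrambled control. Each marker is 1 library, the dashed line is 1 FPKM, values listed at 0 are not drawn, and ZSCAN1, at 0 in every library, is left out. ZSCAN5A is the one gene above 1 FPKM in the control whose si4 and si5 values (0.730 and 0.713) stand clearly apart from the other markers.

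The family spans a wide range of levels in HEK-293, and 32 of the 38 members reached 1 FPKM in at least 1 library. In the control, 6 stood at 10 FPKM or above, 12 between 5 and 10, 12 between 1 and 5, and 3 between 0.1 and 1. Another 3 had less than 0.1 FPKM there, and 2 were listed at 0. All members together made up 0.0525% of the FPKM sum in the control and 0.0450% to 0.0470% in the siRNA libraries. The FPKM sum itself was 488036 in the control and 537181 to 546239 in the siRNA libraries.

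The most abundant transcript was that of SCAND1, the short SCAN-only gene. It was measured at 38.0 FPKM under si4, 36.3 under si5, 39.8 under si1 and 36.1 in control cells. ZNF24, whose protein is a repressor with a role in neural progenitors, followed at 30.7, 31.1, 31.2 and 29.2 FPKM in the same order. Neither gene left a narrow band, the 4 values of ZNF24 lying within 1.07-fold and those of SCAND1 within 1.10-fold of each other. ZSCAN18, a gene often methylated in tumours, stood at 22.7 FPKM under si4, 18.5 under si5, 20.7 under si1 and 23.4 in control cells. ZNF444 was measured at 21.7, 21.2, 21.4 and 20.5 FPKM. The order of this pair depended on the library, ZNF444 being above ZSCAN18 with si5 and si1 and below it with si4 and in the control.

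ZNF274 is a KRAB zinc finger protein that brings the histone methyltransferase SETDB1 to the 3′ ends of other zinc finger genes. Its FPKM was 15.4 under si4, 16.8 under si5, 15.4 under si1 and 17.7 in control cells, the control being the highest of the 4. ZSCAN16 lay at 9.56 to 10.0 FPKM in all libraries, with 627 fragments in the control. ZSCAN2 stood at 8.83, 8.0, 9.32 and 7.87 FPKM, and ZSCAN12 at 6.94, 7.56, 7.21 and 7.79 FPKM, in the order si4, si5, si1 and control. The control was the lowest library for ZSCAN2 and the highest for ZSCAN12, and ZSCAN2 stood above ZSCAN12 in every library.

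At the other end, beside ZSCAN5B, 4 members had less than 0.1 FPKM in the control. ZSCAN4, a gene of the early embryo that protects telomeres in embryonic stem cells, was listed at 0 in the control and had 5, 4 and 9 fragments with si4, si5 and si1. The exact intervals of the ratio to the control are open above and start at 83.9% with si4, 42.7% with si5 and 194% with si1. ZSCAN10, a transcription factor of pluripotent cells, had 5 fragments in the control, 2 with si5 and 0 with si4 and si1. Given 5 control fragments, the interval with si4 reached up to 100% of the control and that with si1 to 107%. PEG3, an imprinted gene expressed from the paternal copy, was measured at 0.00766 FPKM under si4, 0.0213 under si5, 0.00411 under si1 and 0.00418 in control cells. No whole number of fragments could be read for it, and PEG3 overlaps the imprinted gene ZIM2 on the same strand, so its ratio is not interpreted. ZSCAN1 was listed at 0 throughout.

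A further 3 members lay just under 1 FPKM in the control. ZSCAN23 was measured at 0.694, 0.692, 0.751 and 0.867 FPKM in the order si4, si5, si1 and control, or 131, 185, 132 and 150 fragments. ZNF396 gave 0.903, 1.01, 0.931 and 0.827 FPKM in that order, and the pseudogene ZSCAN12P1 gave 0.888, 1.07, 0.782 and 0.872. The last 2 passed the limit of 1 FPKM through the si5 library alone.

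The libraries themselves bear on how closely such values can be compared. Relative to the control, the steps between low values gave depths of 1.09 for si4, 1.54 for si5 and 1.02 for si1. The same estimate put about 53100000 fragments in the control. Any scaling of libraries in the deposited values would enter these depths, and the paper gives a much narrower range of reads per sample. Genes known in HEK-293 were present, with KRT8 at 148 to 199 FPKM, VIM at 270 to 359 and NEFL at 37.0 to 45.2. PAX2, a kidney factor, stood at 1.16 FPKM in the control and at 0.584 to 0.615 in the siRNA libraries. The kidney factors LHX1 and FOXD1 were also highest in the control, LHX1 at 4.17 FPKM beside 3.28 to 3.31 and FOXD1 at 17.9 beside 9.76 to 16.4. KRT8 and KRT18 were lowest in the control, KRT18 at 70.4 FPKM beside 78.3 to 86.2. For VIM, NEFL and NEFM the control lay within the range of the siRNA libraries, NEFM at 10.1 FPKM beside 8.46 to 11.4. This single control library enters every ratio to the control given here, and its part in them was not tested.

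For the comparison of the ZSCAN5A siRNAs, the mean FPKM of si4 and si5 was divided by the control. A gene was compared when 1 library reached 1 FPKM and neither side was 0, and it was counted as different when the ratio exceeded 1.5-fold either way. Of 32 members compared, 1 passed, which is ZSCAN5A itself, beside 3.79% of all genes (492 of 12993). The count of 1 in 32 is near that background. The median log2 ratio was -0.07 over the members, from a quartile of -0.14 to one of 0.05, and -0.02 over all genes, with quartiles of -0.19 and 0.13. Ratios below 1 were found for 21 members and above 1 for 11. Over all genes, 6929 were below 1 and 6064 above it. Among other genes with a SCAN domain, described further below, 11 were below 1 and 6 above it. Without ZSCAN5A, the remaining 31 members lay between log2 ratios of -0.35 (ZKSCAN1) and 0.21 (ZNF396), and none was further than 1.27-fold from the control.

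The library labelled ZSCAN5B knockdown gave a like count. Of 30 members compared with the control, 0 differed by more than 1.5-fold, beside 4.01% of all genes (518 of 12921). No test was run here, so no count at a p-value can stand beside that 0. The median log2 ratio was -0.06 over the members and -0.01 over all genes, with 20 members below the control and 10 above it. Over all genes, 6660 were below the control and 6261 above it. For the members, the log2 ratios of this comparison had the following range. They ran from -0.38 (ZNF213) to 0.24 (ZSCAN2). Both comparisons share the 1 control library, so a low or high value there enters each of them.

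The 2 siRNAs against ZSCAN5A offer a yardstick that does not use the control. Between si4 and si5, 0 of 31 members differed by more than 1.5-fold, beside 2.53% of all genes (324 of 12800). The median size of the log2 ratio between si4 and si5 was 0.12 over 31 members, ZSCAN5A left out. Against the control it was 0.10 for si4 (29 members), 0.12 for si5 (31 members) and 0.11 for si1 (29 members). Apart from ZSCAN5A, the typical difference of a member from the control was thus close in size to that between the 2 libraries for the same target. Over all genes, the median size was 0.11 between si4 and si5 and 0.18, 0.15 and 0.16 for si4, si5 and si1 against the control.

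**Figure D2:**
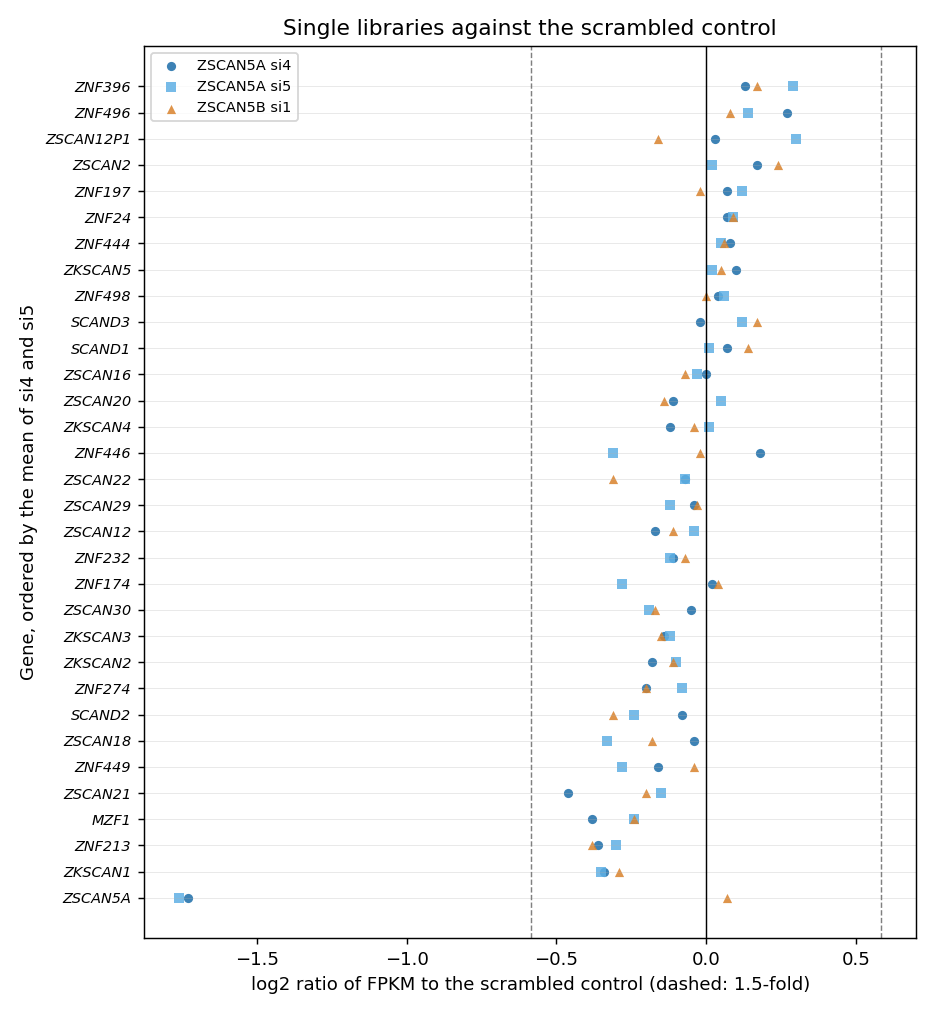
log2 ratio of FPKM to the scrambled control for the 32 members compared, ordered by the mean of si4 and si5, with 1 marker for each siRNA library. Dashed lines mark 1.5-fold. ZSCAN5A stands at -1.73 with si4, -1.76 with si5 and 0.07 with si1, and every other marker lies between -0.46 and 0.30.

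The spread over the 4 libraries was taken for 29 members at 1 FPKM or above in every library. This limit leaves out ZSCAN5A, whose highest value was 3.55 times its lowest. The highest value of the 29 was 1.14 times the lowest at the median, and 1.21 times over 12411 genes under the same limit. The narrowest of the 29 was ZNF498 (annotated as ZSCAN25), at 6.08, 6.13, 5.91 and 5.89 FPKM in the usual order of si4, si5, si1 and control, with 805, 1148, 729 and 715 fragments behind them. The widest of the 29 was ZNF446, at 7.15, 5.11, 6.24 and 6.32 FPKM from 807, 816, 656 and 654 fragments. For ZNF446 the 2 ZSCAN5A siRNAs fell on opposite sides of the control, at 113% (102% to 125%) with si4 and 80.8% (72.8% to 89.7%) with si5. The si4 value was 140% of the si5 value, with an interval of 127% to 154%. ZNF446 overlaps SLC27A5 on the opposite strand.

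Several members had their highest value in the control, among them ZKSCAN1, which carries both a SCAN and a KRAB domain. Its FPKM was 5.98 under si4, 5.94 under si5, 6.18 under si1 and 7.58 in control cells. The 3 siRNA libraries lay within 1.04-fold of each other and the control stood above them. From 1010, 1421, 973 and 1173 fragments, ZKSCAN1 was at 78.9% of the control with si4 (72.4% to 85.9%), 78.4% with si5 (72.5% to 84.8%) and 81.6% with si1 (74.9% to 88.9%). A single control library sets all of these values, so they are not 3 separate observations.

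ZNF213 and MZF1 had the same layout. ZNF213 was measured at 2.72 FPKM under si4, 2.85 under si5, 2.70 under si1 and 3.50 in control cells. MZF1, named for its expression in myeloid cells, was measured at 3.34, 3.69, 3.68 and 4.35 FPKM in that order. Both overlap an antisense transcript, ZNF213-AS1 and MZF1-AS1. In each the control was the highest library, and no fragments could be read from the values, so no counting interval is given. ZKSCAN3, known as a repressor of autophagy genes, showed a smaller gap, at 2.40, 2.42, 2.36 and 2.63 FPKM. ZSCAN23 was at 80.0% of the control with si4 (62.8% to 102%) and 79.9% with si5 (64.0% to 99.7%).

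ZSCAN21, a transcription factor studied in neurons, was the furthest below the control after ZSCAN5A with si4 alone, among members at 1 FPKM or above in either library. Its FPKM was 2.84 under si4, 3.54 under si5, 3.41 under si1 and 3.92 in control cells, from 324, 570, 361 and 409 fragments. It stood at 72.6% of the control with si4 (62.5% to 84.2%) and at 90.2% with si5 (79.3% to 103%). The si4 value was 80.4% of the si5 value (69.9% to 92.3%), so ZSCAN21 was lower with si4 than in each of these libraries by more than counting error. It overlaps ZNF3 on the opposite strand.

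Short matches of the siRNA seeds in 3′ UTRs were listed for all members with an annotated 3′ UTR, on the mRNA strand only. The si4 seed match, ACGTGTA, occurs in 2 members, and both sites are shown with the bases around them in the case used for the targets.
ZSCAN21, chr7:99662523-99662529: cgtagttaaacagACGTGTAt
ZNF396, chr18:32948560-32948566: gccaggcatggcaACGTGTAc
Coordinates are those of the 7 capitals in GRCh37. ZSCAN21 had the low si4 value given above, whereas ZNF396 stood at 109% of the control with si4 (85.5% to 140%). Of 29 members compared with si4 that have a 3′ UTR, 1 holds this match (3.45%, ZSCAN21), since ZNF396 was under 1 FPKM with si4 and in the control. Among all 11964 genes compared that have a 3′ UTR, 3.34% hold this match, close to the share of members. Their median log2 ratio was -0.29 in the si4 library, against -0.01 for genes without the match. The si5 match, ACAAGAG, is held by 6 of 30 members compared and by 12.0% of all genes. In the si5 library those 6 members had a median log2 ratio of -0.12 and the others -0.07, against -0.10 and -0.01 over all genes. The si1 match, ATCATTT, is held by 8 of 29 members and by 23.4% of all genes. In the si1 library the 8 had a median of -0.04 and the others -0.07, the medians over all genes being -0.06 and 0.01. The only si1 matches of ZKSCAN4, ZNF496 and ZSCAN20 lie outside the bounds that the deposited values give for these genes. A match is a description of the sequence, and no part of it in these ratios was tested.

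**Figure D3:**
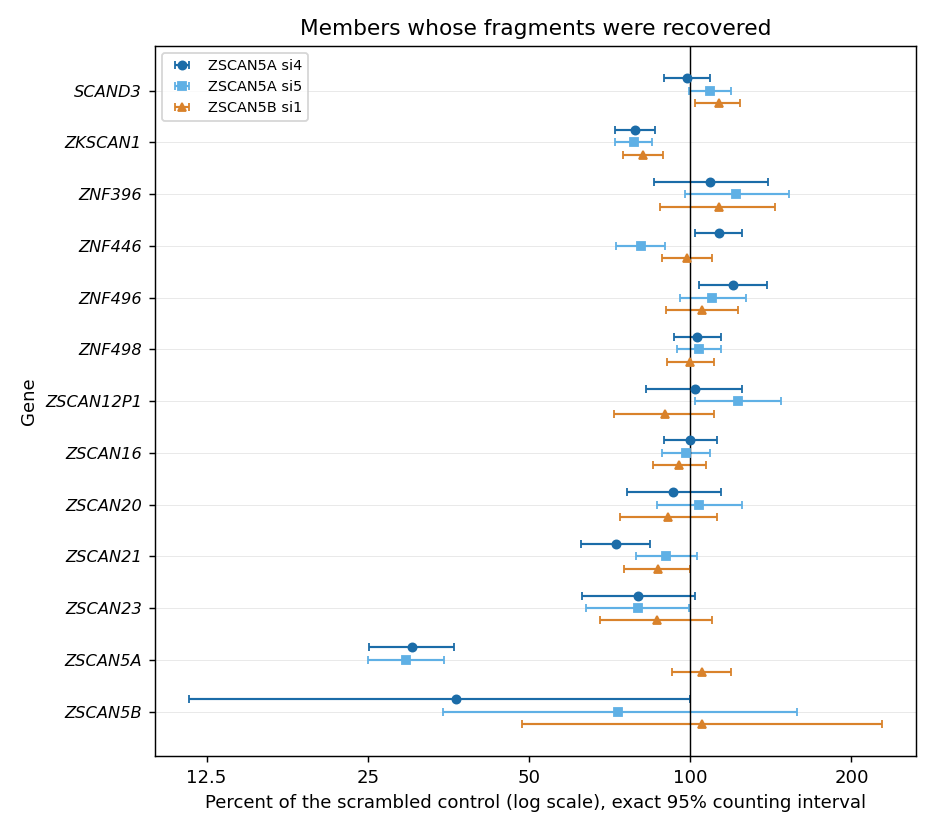
Level of 13 members as a percentage of the scrambled control, on a log axis, for each siRNA library. Bars are exact 95% intervals of the fragments and cover counting error alone. ZSCAN5A is at 30.2% and 29.5% with si4 and si5, ZKSCAN1 is at 78.4% to 81.6%, and the bars of ZSCAN5B are the widest because they rest on 6 to 17 fragments.

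Counting error could be judged for the members whose fragments were recovered. With si4, 5 of 9 such members at 1 FPKM or above had an interval without 100% (ZKSCAN1, ZNF446, ZNF496, ZSCAN21 and ZSCAN5A), beside 49.8% of all genes treated in the same way. For si5 it was 4 of 11 (ZKSCAN1, ZNF446, ZSCAN12P1 and ZSCAN5A), beside 45.0%. With si1 it was 2 of 9 (SCAND3 and ZKSCAN1), beside 43.4%. Between si4 and si5 it was 4 of 10 (SCAND3, ZNF446, ZSCAN12P1 and ZSCAN21), beside 40.2%. ZSCAN12P1 and ZNF396 entered the counts that use si5 only because they were above 1 FPKM in that library, where they were highest, so those counts are a description.

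Members above the control differed by less. ZNF496 was measured at 2.99 FPKM under si4, 2.74 under si5, 2.62 under si1 and 2.48 in control cells, from 424, 550, 346 and 323 fragments. It stood at 120% of the control with si4 (104% to 139%) and 110% with si5 (95.9% to 127%). ZNF396 reached 122% with si5, with an interval of 98.0% to 153%, and ZSCAN12P1 reached 123% with si5 (102% to 148%) but 102% with si4 and 89.6% with si1. ZNF197 lay at 5.31, 5.51, 5.01 and 5.07 FPKM. SCAND3, a gene built from a SCAN domain and a transposase, was measured at 2.81, 3.10, 3.21 and 2.85 FPKM and stood at 113% of the control with si1 (102% to 124%). ZNF174, a SCAN repressor, was measured at 6.24, 5.06, 6.34 and 6.15 FPKM, with the si5 library below the other 3.

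In the library labelled ZSCAN5B knockdown, the members furthest below the control among those at 1 FPKM or above in either library were ZNF213, ZSCAN22, SCAND2, ZKSCAN1 and MZF1. ZSCAN22 was measured at 1.57 FPKM under si4, 1.57 under si5, 1.33 under si1 and 1.64 in control cells. The pseudogene SCAND2 was measured at 4.02, 3.61, 3.44 and 4.25 FPKM in that order. For ZSCAN22 the si1 library stood below the other 3, whereas SCAND2 also had a low si5 value.

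By position, 30 of the 38 members stood in 6 groups in which neighbours were at most 1 Mb apart, and 8 stood alone. The groups were formed from the members only, and genes with a SCAN domain outside the rule were not placed. The largest group, at chr19:56652535-59084942, holds 11 members, from ZNF444 at one end to MZF1 at the other. It has the least uniform levels, with 7 members at 1 FPKM or above, ZSCAN18 highest at 23.4 FPKM in the control, and ZSCAN1 and ZSCAN4 listed at 0 there. ZSCAN5A and ZSCAN5B lie in it, and among its 7 members compared, log2 ratios ran from -1.74 (ZSCAN5A) to 0.07 (ZNF444) with the ZSCAN5A siRNAs. The group of 7 at chr6:28058929-28555112 had control levels of 0.867 to 10.0 FPKM and ratios from -0.13 to 0.17. The group of 4 at chr7:99102273-99662663 ran from -0.35 (ZKSCAN1) to 0.06 (ZKSCAN5). ZSCAN30, ZNF24 and ZNF396 at chr18:32831023-32957301 had neighbouring genes 35-fold apart in level, at 0.827 FPKM for ZNF396 and 29.2 for ZNF24 in the control.

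Transcripts of the members differ widely in composition, from 37.5% GC in ZNF24 to 69.4% in SCAND1. Over 31 members, ZSCAN5A left out, the rank correlation of GC content with the log2 ratio was -0.15 in the comparison of ZSCAN5A siRNAs, and that of transcript length was 0.06. With si1 the values were -0.11 and 0.07 over 29 members. The points share their libraries, and the values are given as a description. Of all members, 21 overlap an annotated gene on the opposite strand, and whether fragments were counted by strand is not given in the sources used here.

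Other genes with a SCAN domain, listed under further ZNF symbols and PGBD1, were set beside the members. Of 17 compared, 0 differed by more than 1.5-fold with the ZSCAN5A siRNAs or with si1, and their median log2 ratios were -0.08 and -0.06. The 2 most abundant were ZNF263, at 13.5, 12.9, 13.1 and 13.3 FPKM in the same order of libraries, and ZNF192, at 11.1, 11.5, 11.1 and 12.7. Of 408 other ZNF genes compared, 4 passed 1.5-fold with the ZSCAN5A siRNAs (0.98%), with ZNF480 higher and ZNF70, ZNF713 and ZNF385B lower. With si1, 8 of 409 passed (1.96%), all lower, and they were ZNF142, ZNF264, ZNF367, ZNF503, ZNF70, ZNF703, ZNF713 and ZNF827. Between si4 and si5, 1 of 404 passed, ZNF827. ZNF713 was measured at 0.714, 0.707, 0.676 and 1.44 FPKM and ZNF70 at 1.13, 1.33, 1.33 and 2.33, in the order si4, si5, si1 and control. The most abundant of these genes were ZNF711, at 217, 218, 307 and 219 FPKM, and ZNF146, at 80.1 FPKM in the control and 97.7 to 108 under the siRNAs.

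**Figure D4:**
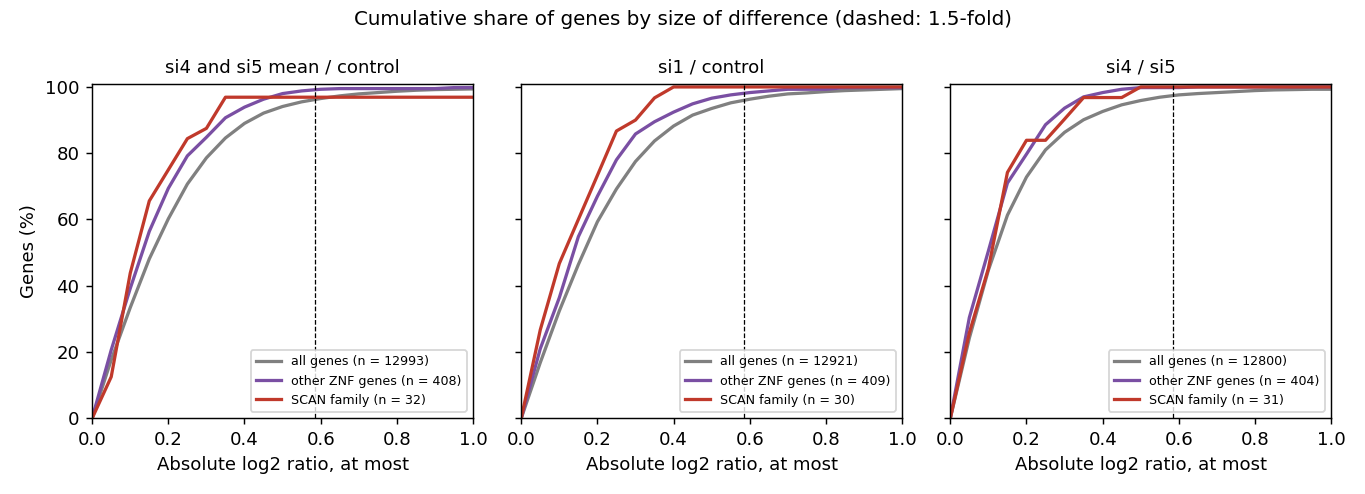
Cumulative share of genes whose absolute log2 ratio is at most the value on the horizontal axis, for SCAN family members, other ZNF genes and all genes, in the comparisons of the ZSCAN5A siRNAs with the control, of si1 with the control, and of si4 with si5. Within a log2 ratio of 0.3 either way lay 87.5% of members, 84.8% of other ZNF genes and 78.6% of all genes in the first comparison, and the dashed line marks 1.5-fold.

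Transcripts of KRAB corepressor and heterochromatin genes were also compared, since part of the family carries a KRAB domain. All 24 genes of the list were compared, and 1 passed 1.5-fold with the ZSCAN5A siRNAs, PPHLN1, a part of the HUSH silencing complex. Its FPKM was 40.7 with si4, 42.9 with si1 and 36.5 in the control, and it was listed at 0 with si5, so that call rests on a value that may be a failed estimate. With si1, 0 of 24 passed. The median log2 ratio of the list was -0.10 with the ZSCAN5A siRNAs and -0.06 with si1. RBBP7, a histone chaperone, was the most abundant, at 459, 426, 531 and 455 FPKM. CBX3, a heterochromatin protein of the HP1 family, was measured at 199, 210, 203 and 163 FPKM, the control being the lowest. TRIM28, the corepressor bound by many KRAB domains, was measured at 160, 148, 143 and 161 FPKM.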

How the data were processed

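Conditions were taken from the sample labels. The authors aligned reads to hg19 and deposited 1 table of FPKM values, made with TopHat2 2.1.0 and Cufflinks 2.2.1 after CASAVA 1.8.2 and Trimmomatic 0.30, per the submitters' processing notes. FPKM values were used as deposited, and ratios were taken without a test. Relative depth was read among 1745 genes under 0.1 FPKM in every library, from those nearest the commonest ratio to the control. These were 215 genes for si4, 174 for si5 and 252 for si1. Fragments are the smallest whole numbers in the proportion of the depth-corrected values, with a tolerance of 0.001% and a lowest number of at most 1000. Where the true numbers share a factor they are too small, and the interval is too wide. Such numbers were found for 72.0% of genes under 0.1 FPKM and 28.8% from 3 to 10 FPKM, and for 3.78% and 0.323% after noise of 0.1%. Annotated lengths were 0.108 to 4.27 times those the fragments imply, so fragments of other members were not approximated.

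Named genes are the ZSCAN5 genes, the 8 members highest in the control, those past 1.5-fold, the 5 furthest above and the 5 furthest below the control, a set of well studied members and, of each list, genes past 1.5-fold and the 2 most abundant. ZNF446, ZNF498, ZSCAN23, TRIM28 and other names outside this rule were chosen after their values were seen. The members and lists were chosen with earlier results of these data known. siRNA sequences came from the study's supplement. Annotation was GENCODE v44 lifted to GRCh37, with all 38 members matched, 2 under another symbol. Protein features were not computed. Python 3.11.15, NumPy 2.4.6, pandas 2.3.3, SciPy 1.17.1 and matplotlib 3.10.9 were used, and scripts were tested on simulated data. Alternatives covered the expression and fold limits, pseudocounts, scaling, summed symbols and each ZSCAN5A siRNA alone.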

Additional observations from a re-analysis of the deposited data

How the results depend on the processing

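With 1 library per condition, neither biological nor technical spread is known, and the cause of any shift below was not tested. With the ZSCAN5A siRNAs, 4 members passed 1.5-fold without an expression limit (PEG3, ZSCAN10 and ZSCAN5B, all under 0.1 FPKM in each library, besides ZSCAN5A), 0 with a limit of 5 FPKM, which ZSCAN5A does not reach, and 3 at a lower limit of 0.32 on the log2 scale (ZKSCAN1, ZNF213 and ZSCAN5A). The count stayed at 1 with pseudocounts of 0.1 and 1, both scalings, summed symbols, a fold limit of 2 and each siRNA alone. At that lower limit, 1 member passed with si1 (ZNF213) and 1 between si4 and si5 (ZNF446), and without an expression limit 3 passed between si4 and si5 (PEG3, ZSCAN4 and ZSCAN5B). The other settings left these 2 counts at 0. Counts at settings other than the main one are given without the share over all genes. Whether they stand above or below that share is therefore not known.

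The median log2 ratio with the ZSCAN5A siRNAs was -0.073. It was -0.090 without an expression limit, -0.061 at 5 FPKM, -0.054 with a pseudocount of 1, -0.059 with median-ratio scaling, -0.034 with upper-quartile scaling and -0.059 with si4 alone. With si1 it was -0.056, and -0.044 without an expression limit and -0.023 at 5 FPKM. Neither of these 2 medians changed sign. Under upper-quartile scaling the median over all genes with the ZSCAN5A siRNAs went from -0.020 to 0.019, and that of the members between si4 and si5 went from 0.005 to -0.066 (-0.017 with median-ratio scaling). In 196 values of named members under both scalings and pseudocounts no call changed. ZSCAN5A went from -1.74 to -0.99 with a pseudocount of 1, and members not called moved by 0.1 or more on the log2 scale in 8 values. The largest of these moves were in members under 0.1 FPKM, which the expression limit kept from being called. With the ZSCAN5A siRNAs and a pseudocount of 1, ZSCAN10 went from -2.95 to -0.05, PEG3 from 1.79 to 0.01 and ZSCAN5B from -0.86 to -0.05. No paired analysis was possible because each siRNA has 1 library and the labels give no shared replicate. No outlier screen applied to groups of 1.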
